A study of Mus musculus with 29 samples.

Results

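Genes that build ribosomes in the nucleolus were followed through culture of mouse CD4 T cells. The set holds 46 genes, picked by symbol for their known roles, out of 54532 gene IDs in the table of the cell-type experiment and 55421 in the table of the Smad experiment. All 46 were present in both tables, and all 46 passed the filter on low values in both. The series studies lipid metabolism and Smad signalling in regulatory T (Treg) cells with 29 samples, of which 17 RNA libraries are used here.

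All cells came from spleens of C57BL/6 mice. The Treg group (3 libraries) was made from naive CD4 T cells in 5 days of culture with 15 ng/ml IL-2 and 10 ng/ml hTGFb, the Th0 group (3 libraries) from such cells in 5 days with 15 ng/ml IL-2, and the naive group (3 libraries) was not cultured. The guide groups sgSmad2/3, sgSmad3 and sgSmad2 (2 libraries each) were Treg cultures that carried guide RNAs against both genes, Smad3 alone or Smad2 alone, and their control (2 libraries) was the same Treg culture with no guide named. Smad2 and Smad3 are the transcription factors that carry the TGF-beta signal into the nucleus. Each library is a bulk culture or cell preparation, so a smaller share of cells with a high level and less RNA per cell cannot be told apart. Levels are tags per 1000000 counted tags (CPM), a share of the library and not an amount per cell. Whether the libraries of 1 group are separate animals or cultures is not in the labels, and the p-values therefore rest on a spread that may be technical.

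Ribosome production starts in the nucleolus, where RNA polymerase I transcribes one long precursor of the ribosomal RNAs. Guide RNAs held in box C/D and box H/ACA ribonucleoproteins direct methylation and pseudouridylation of that precursor, a large processome folds and cleaves the part that becomes the small subunit (40S), and a separate chain of factors matures the large subunit (60S). Resting T cells keep this production low, and antigen receptor and cytokine signals raise it before the cells grow and divide.

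The cell-type libraries held 797612 to 1551478 tags and the Smad libraries 1294583 to 1602297. The 3 T cell markers summed to 948 to 1090 CPM in Treg, 992 to 1060 CPM in Th0 and 1370 to 1430 CPM in naive libraries. Foxp3, the defining factor of Treg cells, had 138, 191 and 207 CPM in the Treg libraries, 13.8, 8.88 and 8.57 CPM in the Th0 libraries and 82.7, 91.7 and 88.8 CPM in the naive libraries, so it was highest in Treg and was also present in the cells labelled naive. The naive libraries carried tags of other blood cells: the 5 red cell markers summed to 0 to 4.51 CPM in Treg, 4.90 to 5.55 CPM in Th0 and 496 to 1170 CPM in naive libraries, the 6 myeloid markers to 0 to 0.980 CPM in Treg, 0 to 1.06 CPM in Th0 and 10.5 to 83.0 CPM in naive libraries, and the 6 B cell markers to 1.96 to 5.80 CPM in Treg, 2.45 to 17.8 CPM in Th0 and 15.2 to 216 CPM in naive libraries. In both cultures the myeloid markers Cd14, Csf1r, Lyz2, S100a8 and S100a9 were listed at 0, and in naive libraries Itgam was. Of the markers tested, all 5 red cell, all 3 myeloid and 3 of 5 B cell markers were lower in Treg than in naive cells (5, 3 and 5 in Th0 cells). Gm42418, a gene that overlaps ribosomal RNA sequence, took 7.11 to 8.78% of tags in Treg, 6.59 to 7.88% in Th0 and 10.3 to 11.4% in naive libraries. The part of such cells and of Gm42418 in the changes against naive cells was not tested.

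Stretches of promoter are shown to set members with and without a short sequence, the E-box, side by side. Windows of 300 bases, 250 before the transcription start and 50 after it, were taken from RefSeq (GRCm38.p6) and matched 41 of the 46 members by symbol. The E-box CACGTG, which reads the same on both strands and is bound by MYC and other factors of its family, lay in 9 of these 41 (22.0%), in 14 of 83 other ribosome biogenesis genes (16.9%) and in 2187 of 27025 genes with a window (8.09%). The ETS motif CCGGAAG on either strand lay in 14 members (34.1%), in 41 of the 83 (49.4%) and in 9.93% of all genes, and the NRF1 motif GCGCATGC on either strand lay in 1 member (2.44%), in 10 of the 83 (12.0%) and in 3.05% of all genes. In the members no E-box overlapped an ETS or NRF1 match, and the ETS and NRF1 letters were chosen after the data had been seen. Below are the 250 bases before the start, 5′ to 3′ on the gene's own strand, for the 3 members with an E-box there and then for 3 members described below that have none of these letters; capitals mark the E-box and the ETS motif.
Nop2 (chr6:125131633-125131882, plus strand): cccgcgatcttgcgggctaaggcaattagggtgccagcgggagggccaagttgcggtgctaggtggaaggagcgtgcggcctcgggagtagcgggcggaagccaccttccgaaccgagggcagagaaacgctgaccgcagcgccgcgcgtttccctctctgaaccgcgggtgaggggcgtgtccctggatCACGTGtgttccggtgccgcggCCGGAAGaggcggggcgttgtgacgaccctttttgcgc
Rrn3 (chr16:13780449-13780698, plus strand): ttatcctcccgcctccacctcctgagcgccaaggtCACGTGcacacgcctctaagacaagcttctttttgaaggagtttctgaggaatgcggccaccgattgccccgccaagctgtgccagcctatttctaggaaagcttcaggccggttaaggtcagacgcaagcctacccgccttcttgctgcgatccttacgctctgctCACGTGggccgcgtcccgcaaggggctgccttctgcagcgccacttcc
Utp18 (chr11:93885767-93886016, minus strand): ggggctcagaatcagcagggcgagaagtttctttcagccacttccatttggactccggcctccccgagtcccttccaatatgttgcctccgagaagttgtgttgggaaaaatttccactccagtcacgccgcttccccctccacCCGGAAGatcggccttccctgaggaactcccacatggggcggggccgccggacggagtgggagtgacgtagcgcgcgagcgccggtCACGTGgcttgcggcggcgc
Ncl (chr1:86359456-86359705, minus strand): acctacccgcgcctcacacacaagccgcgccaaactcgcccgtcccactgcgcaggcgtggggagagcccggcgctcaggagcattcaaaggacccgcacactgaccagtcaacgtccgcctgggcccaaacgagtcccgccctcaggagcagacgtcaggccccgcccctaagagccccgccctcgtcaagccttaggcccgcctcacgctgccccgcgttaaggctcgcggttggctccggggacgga
Dkc1 (chrX:75095604-75095853, plus strand): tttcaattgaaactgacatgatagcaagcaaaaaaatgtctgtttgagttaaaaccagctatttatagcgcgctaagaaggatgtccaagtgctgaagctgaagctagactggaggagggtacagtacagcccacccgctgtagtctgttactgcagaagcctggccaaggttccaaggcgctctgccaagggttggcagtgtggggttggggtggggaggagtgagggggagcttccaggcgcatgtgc
Polr1a (chr6:71908803-71909052, plus strand): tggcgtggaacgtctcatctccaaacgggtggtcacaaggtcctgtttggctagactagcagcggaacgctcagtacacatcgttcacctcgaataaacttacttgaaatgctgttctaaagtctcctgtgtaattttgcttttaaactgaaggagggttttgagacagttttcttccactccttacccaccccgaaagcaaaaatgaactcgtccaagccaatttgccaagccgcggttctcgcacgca
The E-box began 60 bases before the start of Nop2, 20 before that of Utp18, and 215 and 48 before that of Rrn3, whose ETS match nearest the start crosses it and is not in the stretch shown. In Ltv1, Mybbp1a, Pes1, Tsr1, Utp20 and Wdr43 it lay after the start. Of the 9 members with an E-box 4 were higher in Th0 than in naive cells, and of the 32 members with a window and none 20 were. A match of letters does not show that a factor binds, and no test was made of these shares.

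Nucleolar genes were higher after culture. In Treg cells 24 of the 46 members were higher and 1 was lower than in naive cells, and in Th0 cells 27 were higher and 1 was lower. Over all 14165 genes tested, 23.3% were higher and 16.5% lower in Treg than in naive cells (39.9% either way), and 24.3% were higher and 17.6% lower in Th0 than in naive cells (41.9% either way). The median log2 change of the members was 0.46 in Treg and 0.63 in Th0 cells, against 0.08 and 0.08 over all genes tested. The naive libraries also had the higher share of Gm42418 and of other blood cells given above. Summed over the 46 genes, tags made up 7549 to 7959 CPM in Treg libraries, 9005 to 9313 CPM in Th0 libraries and 5061 to 5335 CPM in naive libraries, and the 3 groups did not overlap. Without Ncl and Npm1, the sums were 4409 to 4687 CPM in Treg, 4917 to 5414 CPM in Th0 and 3348 to 3398 CPM in naive libraries, again without overlap. Both comparisons use the same naive libraries.

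**Figure D1:**
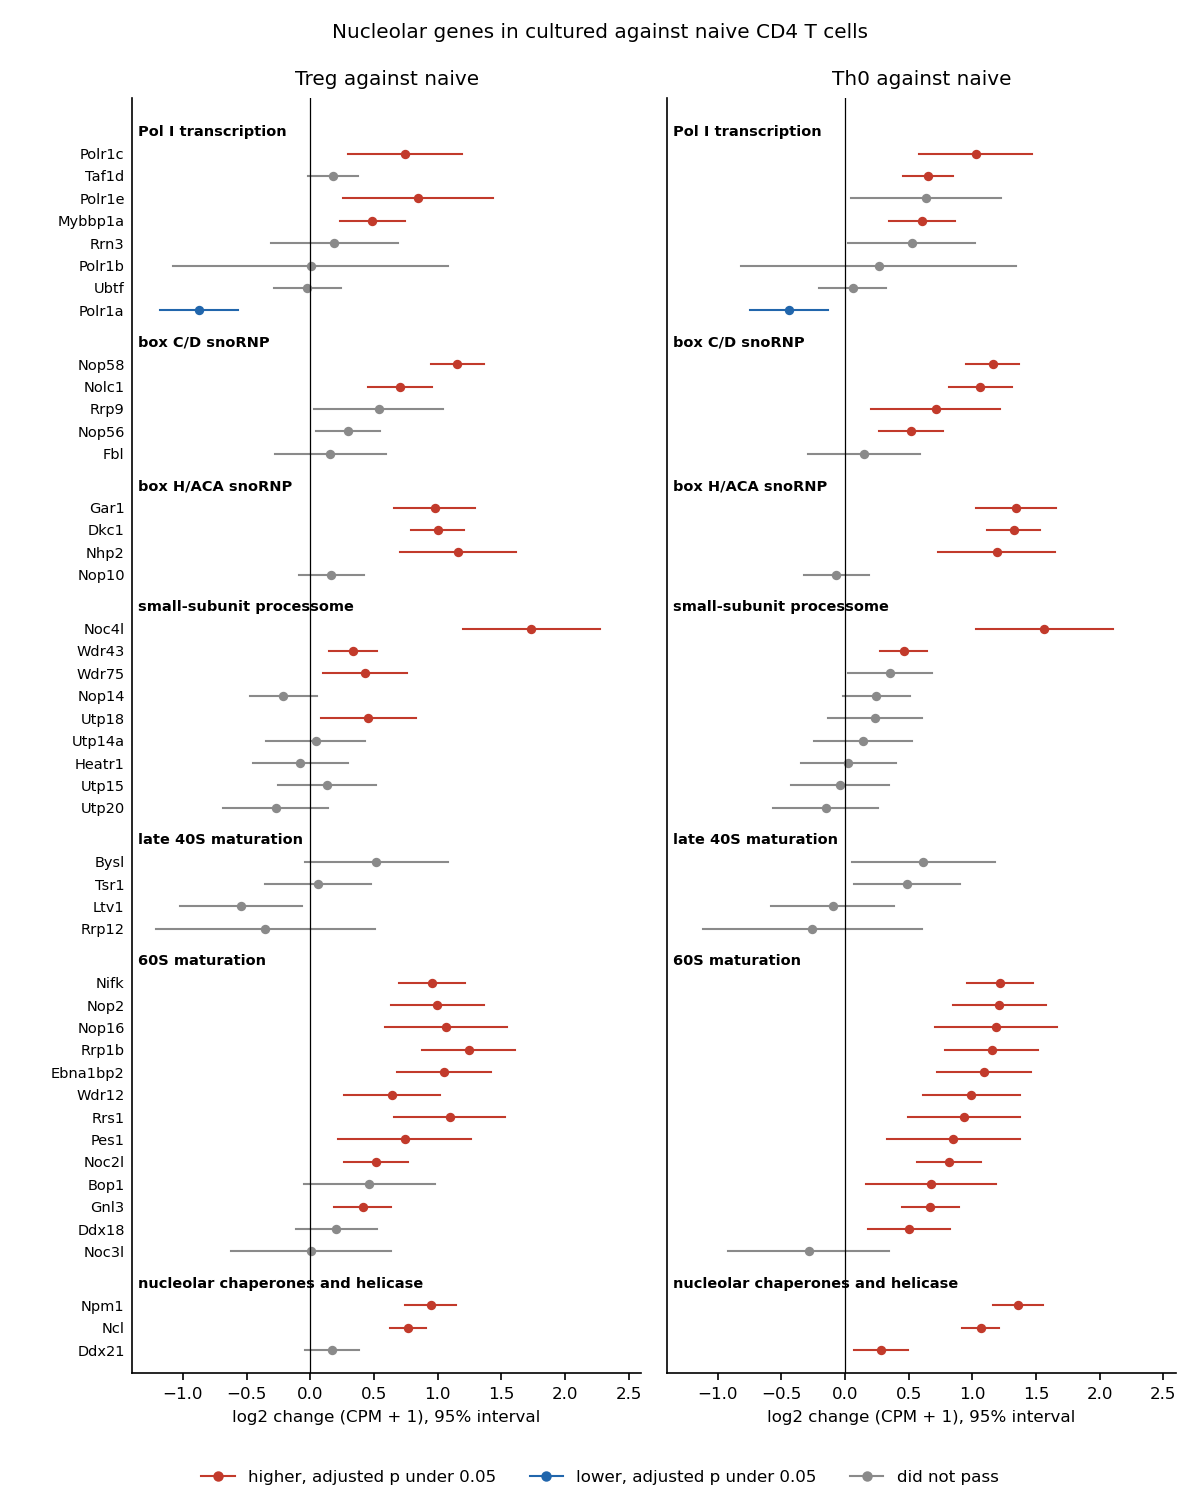
Log2 change of each member on the log2(CPM + 1) scale, with its 95% interval, in Treg against naive cells (left) and in Th0 against naive cells (right), by role; red and blue mark an adjusted p under 0.05. Most points of 60S maturation lie to the right of 0 (10 of 13 higher in Treg and 12 of 13 in Th0), where 23.3% and 24.3% of all genes were higher. None of late 40S maturation passed, and Polr1a is the only blue point in each panel.

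All changes are from limma on log2(CPM + 1) with Benjamini and Hochberg adjustment over the 14165 genes and a threshold of 0.05, and are given with the standard error (SE). The log2(CPM + 1) scale understates the change of genes with few tags. Scaling mattered for the background: with quantile scaling the median of all genes moved to -0.04 in Treg against naive and to -0.03 in Th0 against naive, the calls over all genes were 2735 higher and 2833 lower in Treg (3305 and 2343 without it) and 2872 higher and 3031 lower in Th0 (3442 and 2493 without it), and 18 members in Treg and 22 in Th0 were past the threshold as higher. The median of the members lay above that of all genes by 0.38 in Treg and 0.54 in Th0 cells, and by 0.36 and 0.50 with quantile scaling.

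The transcripts of the abundant nucleolar proteins nucleolin and nucleophosmin were higher in both cultures. Ncl (ENSMUSG00000026234, chr1:86344719-86359455) encodes nucleolin, which binds the ribosomal RNA precursor and its chromatin, and had 2317, 2226 and 2327 CPM in the Treg libraries, 2795, 2888 and 2754 CPM in the Th0 libraries and 1263, 1357 and 1414 CPM in the naive libraries. The 3 groups were apart with no overlap, Th0 highest and naive lowest. The log2 change was 0.77 ± 0.07 (SE; adjusted p = 2.64e-08) in Treg and 1.06 ± 0.07 (SE; adjusted p = 2.30e-10) in Th0 cells against naive cells. Npm1 (ENSMUSG00000057113, chr11:33152498-33164142) encodes nucleophosmin, a chaperone for histones and ribosomal proteins, and had 955, 914 and 864 CPM in the Treg libraries, 1294, 1197 and 1145 CPM in the Th0 libraries and 401, 487 and 537 CPM in the naive libraries. Here too no library of a group reached into another group, and Th0 was highest. The log2 change was 0.95 ± 0.10 (SE; adjusted p = 1.41e-07) in Treg and 1.36 ± 0.10 (SE; adjusted p = 7.66e-10) in Th0 against naive cells. Ddx21, an RNA helicase of the nucleolus, averaged 429 ± 41.8 CPM in Treg, 462 ± 37.0 CPM in Th0 and 381 ± 41.1 CPM in naive cells (SD, n = 3 each). It passed in Th0 only by a small margin, at 0.28 ± 0.10 (SE; adjusted p = 0.0327), and did not pass in Treg, at 0.17 ± 0.10 (SE; adjusted p = 0.193). Its Th0 call was lost without naive replicate 1, Th0 replicate 2 or Th0 replicate 3 (adjusted p = 0.084 to 0.158).

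**Figure D2:**
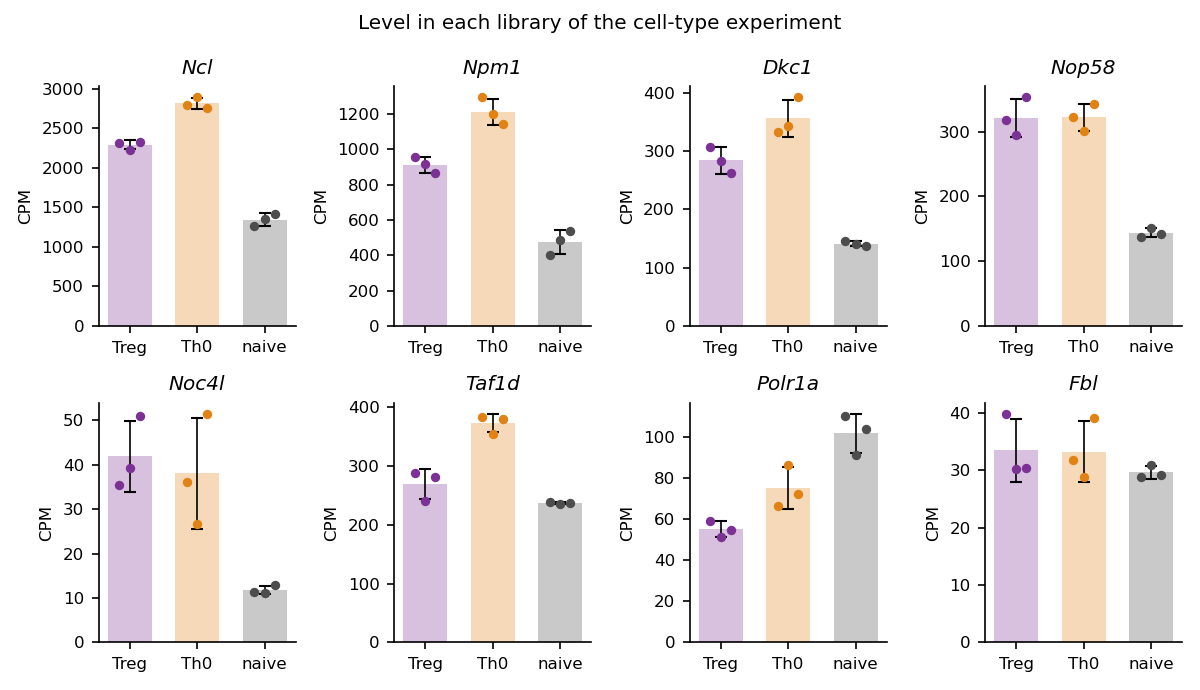
CPM of 8 members in every library of Treg, Th0 and naive cells; points are libraries, bars the mean of 3 and whiskers the SD, on axes that start at 0. Ncl and Npm1 are highest in Th0, lower in Treg and lowest in naive cells, Polr1a runs the other way against naive cells, and the groups overlap for Fbl.

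Of 8 members that serve transcription by RNA polymerase I, 3 were higher (37.5%) and 1 was lower (12.5%) in each culture. Among all genes tested 23.3% were higher and 16.5% lower in Treg, and 24.3% and 17.6% in Th0. Polr1a (ENSMUSG00000049553, chr6:71909053-71979435), the largest, catalytic subunit of the enzyme, was the member that fell. It had 59.2, 51.6 and 54.9 CPM in the Treg libraries, 66.7, 86.6 and 72.3 CPM in the Th0 libraries and 110.3, 91.7 and 104 CPM in the naive libraries. The naive libraries lay above all cultured libraries, and Treg lay below Th0 without overlap. The log2 change was -0.87 ± 0.15 (SE; adjusted p = 7.70e-05) in Treg and -0.44 ± 0.15 (SE; adjusted p = 0.0207) in Th0 cells against naive cells. The Treg call held in all alternatives tried, while the Th0 call was lost without naive replicate 1, naive replicate 3, Th0 replicate 1 or Th0 replicate 3 (adjusted p = 0.0532 to 0.0898).

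Polr1c, a subunit shared with RNA polymerase III, rose and had 45.2, 46.4 and 62.7 CPM in the Treg libraries, 60.4, 56.6 and 69.8 CPM in the Th0 libraries and 35.1, 21.1 and 36.2 CPM in the naive libraries. All cultured libraries were above all naive libraries, with log2 changes of 0.74 ± 0.21 (SE; adjusted p = 0.00842) in Treg and 1.03 ± 0.21 (SE; adjusted p = 0.000625) in Th0 cells. Its Treg call was lost without naive replicate 2 or Treg replicate 3 (adjusted p = 0.0542 to 0.0555) and with quantile scaling (0.0712). Polr1e, a subunit of the dimer that helps the enzyme initiate and elongate, had 24.8, 19.98 and 20.6 CPM in the Treg libraries, 17.0, 22.2 and 17.1 CPM in the Th0 libraries and 11.3, 9.91 and 14.0 CPM in the naive libraries. Both cultures lay above naive cells without overlap, and the change passed in Treg at 0.84 ± 0.28 (SE; adjusted p = 0.0224) but not in Th0 at 0.64 ± 0.28 (SE; adjusted p = 0.0793). Its Treg call was lost without naive replicate 2 or Treg replicate 1 (adjusted p = 0.0724 to 0.0856), with quantile scaling (0.0533) and with edgeR (0.0505). Mybbp1a, a MYB-binding nucleolar protein, was higher by 0.49 ± 0.12 in Treg and 0.61 ± 0.12 in Th0 cells (SE). Ubtf, the factor that keeps ribosomal genes open, was at -0.02 ± 0.12 and 0.06 ± 0.12 and did not pass (adjusted p = 0.908 and 0.736). Rrn3, which brings the enzyme to the promoter, was at 0.19 and 0.52, and Polr1b, the other large subunit, at 0.002 and 0.27 with few tags (2.48 to 15.9 CPM), and neither passed. In Th0, Rrn3 passed without naive replicate 3 (adjusted p = 0.0214).

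The box C/D particle guides methylation of ribosomal RNA. Of its genes, 2 of 5 were higher in Treg and 4 of 5 in Th0 cells, against 23.3% and 24.3% of all genes tested. Nop58, a core protein of the particle, had 318, 294 and 353 CPM in the Treg libraries, 323, 301 and 342 CPM in the Th0 libraries and 138, 151 and 141 CPM in the naive libraries. Both cultures stood above naive cells with a wide gap and overlapped with each other, and the log2 changes against naive cells were 1.16 ± 0.10 (SE; adjusted p = 1.66e-08) in Treg and 1.16 ± 0.10 (SE; adjusted p = 1.44e-08) in Th0. Nolc1, a chaperone of these particles, was higher by 0.71 ± 0.12 in Treg and 1.06 ± 0.12 in Th0 cells (SE). Nop56, the core partner of Nop58, was at 0.30 ± 0.12 (SE; adjusted p = 0.056) in Treg and 0.52 ± 0.12 (SE; adjusted p = 0.00177) in Th0 cells, so only the Th0 change passed, and the Treg change passed without naive replicate 1 (adjusted p = 0.0106). Rrp9, a protein of the U3 particle, was at 0.54 ± 0.24 (SE; adjusted p = 0.0848) in Treg and 0.71 ± 0.24 (SE; adjusted p = 0.0226) in Th0 cells, and its Th0 call was lost without naive replicate 3 or Th0 replicate 2 (adjusted p = 0.108 to 0.11), while its Treg change passed without naive replicate 1 (adjusted p = 0.043). Fbl, the methyltransferase fibrillarin, had 39.8, 30.3 and 30.4 CPM in the Treg libraries, 31.8, 28.9 and 39.2 CPM in the Th0 libraries and 28.8, 31.0 and 29.2 CPM in the naive libraries. Its groups overlapped, with changes of 0.16 in Treg (95% interval -0.28 to 0.60) and 0.15 in Th0 cells (95% interval -0.29 to 0.59), which include changes as large as some that passed in other members.

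The box H/ACA particle guides pseudouridylation and is also part of telomerase. Of its genes, 3 of 4 were higher in each culture, against 23.3% of all genes tested in Treg and 24.3% in Th0. Gar1, a small core protein, had 88.3, 80.6 and 69.5 CPM in the Treg libraries, 102, 109.9 and 95.5 CPM in the Th0 libraries and 43.9, 34.7 and 40.9 CPM in the naive libraries. Every Th0 library was above every Treg library and every Treg library above every naive library, with changes of 0.98 ± 0.15 (SE; adjusted p = 3.18e-05) in Treg and 1.34 ± 0.15 (SE; adjusted p = 5.91e-07) in Th0 against naive cells. Nhp2, another core protein, had 60.3, 43.8 and 42.1 CPM in the Treg libraries, 46.6, 63.2 and 40.4 CPM in the Th0 libraries and 18.8, 24.8 and 19.9 CPM in the naive libraries. The cultures overlapped with each other and lay above naive cells, with changes of 1.16 ± 0.22 (SE; adjusted p = 0.000259) in Treg and 1.19 ± 0.22 (SE; adjusted p = 0.000189) in Th0. Dkc1, the pseudouridine synthase dyskerin, was higher by 0.9999 ± 0.10 (SE; adjusted p = 1.31e-07) in Treg and 1.32 ± 0.10 (SE; adjusted p = 2.33e-09) in Th0 cells. Nop10, the smallest core protein, averaged 232 ± 39.2 CPM in Treg, 195 ± 8.33 CPM in Th0 and 206 ± 26.7 CPM in naive cells (SD, n = 3 each) and did not pass in either.

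Of the small-subunit processome, 4 of 9 members were higher in Treg (44.4%) and 2 of 9 in Th0 cells (22.2%). The shares of all genes tested were 23.3% and 24.3%, so the Th0 count was near that of all genes. Noc4l, which works with Nop14 in forming the small subunit, had the largest fold among the members: 35.5, 39.3 and 50.9 CPM in the Treg libraries, 36.0, 26.6 and 51.4 CPM in the Th0 libraries and 11.3, 11.2 and 12.9 CPM in the naive libraries. The cultures overlapped with each other, and every cultured library was well above every naive library. The changes were 1.74 ± 0.26 (SE; adjusted p = 1.84e-05) in Treg and 1.57 ± 0.26 (SE; adjusted p = 5.55e-05) in Th0 cells. Wdr43, a subunit of the t-UTP complex that joins transcription to processing, was higher by 0.34 ± 0.09 in Treg and 0.46 ± 0.09 in Th0 cells (SE). Its Treg call was lost without the intensity trend in the variance (adjusted p = 0.0872). Utp18 and Wdr75, both WD-repeat proteins of the processome, passed in Treg by 0.46 (adjusted p = 0.0461) and 0.43 (adjusted p = 0.0378). Their Treg calls rested on single libraries: the Utp18 call was lost in 6 of 9 fits that left a library out (adjusted p = 0.0524 to 0.185; kept without naive replicate 2, Th0 replicate 2 and Th0 replicate 3), and the Wdr75 call was lost without naive replicate 2, naive replicate 3, Treg replicate 1 or Treg replicate 3 (adjusted p = 0.0554 to 0.156). In Th0, Wdr75 did not pass, at 0.35 ± 0.16 (SE; adjusted p = 0.0822), but passed without naive replicate 1 or Th0 replicate 2 (adjusted p = 0.0383 to 0.0391). Heatr1, Utp14a, Utp15 and Utp20, scaffold and processing factors, did not pass in either culture and had changes between -0.27 and 0.14.

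Late 40S maturation, the export and cytoplasmic end of the small-subunit path, had no member of 4 past the threshold in either culture. The share of all genes tested that passed was 39.9% in Treg and 41.9% in Th0 against naive cells. With the smallest p in Treg, Ltv1, which escorts the pre-40S particle out of the nucleus, averaged 22.8 ± 5.66 CPM in Treg and 32.9 ± 0.46 CPM in naive cells (SD, n = 3 each), a change of -0.54 ± 0.23 (SE; adjusted p = 0.0682) that passed without Treg replicate 1 (adjusted p = 0.0371). With the smallest p in Th0, Tsr1, a GTPase-like factor of the pre-40S particle, averaged 61.1 ± 5.15 CPM in Th0 and 44.2 ± 11.02 CPM in naive cells, a change of 0.48 ± 0.20 (SE; adjusted p = 0.058) that passed without naive replicate 2 (adjusted p = 0.0164). Bysl, which acts in 40S formation, was at 0.52 ± 0.27 (SE; adjusted p = 0.138) in Treg and 0.62 ± 0.27 (SE; adjusted p = 0.0742) in Th0 cells, and passed in Treg without Treg replicate 1 (adjusted p = 0.0212) and in Th0 without naive replicate 2 or Treg replicate 1 (adjusted p = 0.0334 to 0.0424). Rrp12, an export factor, had 4.90 to 16.1 CPM in all libraries and changes of -0.35 and -0.26 that did not pass.

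Of the 60S maturation genes, 10 of 13 rose in Treg and 12 of 13 in Th0, against 23.3% and 24.3% of all genes tested. Rrp1b, a nucleolar partner of phosphatase 1, had 182, 181 and 140.1 CPM in the Treg libraries, 141, 159.8 and 169 CPM in the Th0 libraries and 50.1, 71.9 and 93.5 CPM in the naive libraries. The cultures overlapped with each other and stood above naive cells, and the changes were 1.25 ± 0.17 (SE; adjusted p = 1.03e-05) in Treg and 1.15 ± 0.17 (SE; adjusted p = 2.37e-05) in Th0. Nifk, which binds the proliferation antigen Ki-67, had 160.4, 170.2 and 164 CPM in the Treg libraries, 189.6, 183 and 220.5 CPM in the Th0 libraries and 95.3, 86.7 and 72.5 CPM in the naive libraries. All cultured libraries were above all naive libraries, with Th0 above Treg and changes of 0.96 ± 0.12 (SE; adjusted p = 3.42e-06) in Treg and 1.22 ± 0.12 (SE; adjusted p = 1.37e-07) in Th0. Nop2, the methyltransferase whose promoter is shown above, averaged 51.1 ± 1.52 CPM in Treg, 59.8 ± 7.83 CPM in Th0 and 25.2 ± 1.57 CPM in naive cells (SD, n = 3 each), changes of 0.996 ± 0.17 (SE; adjusted p = 0.000123) and 1.21 ± 0.17 (SE; adjusted p = 1.30e-05) against naive cells.

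Of the other 60S genes, Nop16, Rrs1, Ebna1bp2 and Noc2l, all assembly factors of the early particle, were higher in both cultures by 0.51 to 1.10 in Treg and 0.82 to 1.19 in Th0 cells. The PeBoW complex of Pes1, Bop1 and Wdr12, needed for processing of the large-subunit RNA, was at 0.74, 0.46 and 0.64 in Treg and 0.85, 0.68 and 0.99 in Th0 cells, and of these values only that of Bop1 in Treg did not pass (adjusted p = 0.145). The Bop1 call in Th0 was lost without naive replicate 1, naive replicate 2 or any Th0 library (adjusted p = 0.0652 to 0.0944), the Wdr12 call in Treg without Treg replicate 1 (adjusted p = 0.0585), and the Pes1 calls without naive replicate 2 (adjusted p = 0.058 in Th0) and, in Treg, without naive replicate 2 or Treg replicate 3 (adjusted p = 0.0972 to 0.136). Gnl3, the GTPase nucleostemin of stem and dividing cells, was higher by 0.41 ± 0.11 in Treg and 0.67 ± 0.11 in Th0 (SE). Its Treg call was lost without the intensity trend in the variance (adjusted p = 0.0639). Ddx18, an RNA helicase, passed in Th0 at 0.50 ± 0.15 (SE; adjusted p = 0.0126), a call lost without naive replicate 3 or Th0 replicate 2 (adjusted p = 0.0598 to 0.0612), and not in Treg at 0.21 ± 0.15 (SE; adjusted p = 0.314). Noc3l, a transport factor of the pre-60S particle in the nucleus with 12.5 to 26.9 CPM, did not pass in either.

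Non-overlap of the groups gives a view that needs no variance model. In Treg against naive cells 27 members lay wholly above and 3 wholly below, where 27% and 21.1% of all genes tested did. In Th0 against naive cells 31 lay wholly above and 1 wholly below, where 26.7% and 21.8% of all genes did. Of the 28 members called in Th0, 22 kept the call in all 16 alternatives tried, and of the 25 called in Treg 17 did.

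TGF-beta sets Treg cultures apart from Th0 cultures, and in that comparison no member was higher in Treg and 4 of 46 were lower, where 2.99% of all genes tested were higher and 2.45% lower (5.44% either way). The 4 were Taf1d, Nop14, Npm1 and Ncl. Positive changes were seen in 10 of the 46, and in 6838 of the 14165 genes tested. The median was -0.12 against -0.01 over all genes. Leaving out Treg replicate 1 or Treg replicate 3 moved the members' median to -0.19, and leaving out Th0 replicate 1 moved it to -0.18. Wholly below the Th0 libraries lay 14 members and wholly above lay 3, where 11.2% and 10% of all genes did.

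Taf1d (ENSMUSG00000031939, chr9:15305953-15316997) encodes a subunit of SL1, the complex that places RNA polymerase I on the ribosomal promoter. It had 289, 241 and 281 CPM in the Treg libraries, 384, 355 and 381 CPM in the Th0 libraries and 239, 235 and 237 CPM in the naive libraries. The Treg libraries lay below all Th0 libraries and above all naive libraries, and the lowest of them was close to the naive level. The log2 change was -0.47 ± 0.09 (SE; adjusted p = 0.00366) in Treg against Th0, 0.18 ± 0.09 (SE; adjusted p = 0.137) in Treg against naive and 0.65 ± 0.09 (SE; adjusted p = 1.37e-05) in Th0 against naive cells. Nop14 (ENSMUSG00000036693, chr5:34638536-34660148), the processome partner of Noc4l, had 80.8, 70.9 and 81.3 CPM in the Treg libraries, 99.6, 111 and 110.2 CPM in the Th0 libraries and 94.0, 86.7 and 88.8 CPM in the naive libraries. Treg was lowest, below both other groups without overlap, with a change of -0.46 ± 0.13 (SE; adjusted p = 0.0388) against Th0 and of -0.21 ± 0.13 (SE; adjusted p = 0.208) against naive cells.

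Npm1 and Ncl, whose library values stand above, changed by -0.41 ± 0.10 (SE; adjusted p = 0.0115) and -0.30 ± 0.07 (SE; adjusted p = 0.0114) in Treg against Th0 cells. For both, every Treg library was below every Th0 library. These 4 calls were less firm than those against naive cells. The Nop14 call was lost when any Treg or Th0 library was left out (adjusted p = 0.0556 to 0.176), the Ncl call without Th0 replicate 2 (adjusted p = 0.0705) or Treg replicate 2 (0.0635), and the Npm1 call without Th0 replicate 1 (0.0751) or Treg replicate 3 (0.0571). The Taf1d call held in all 9 fits that left a library out, and none of the 4 passed without the intensity trend in the variance (adjusted p = 0.141 to 0.354).

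**Figure D3:**
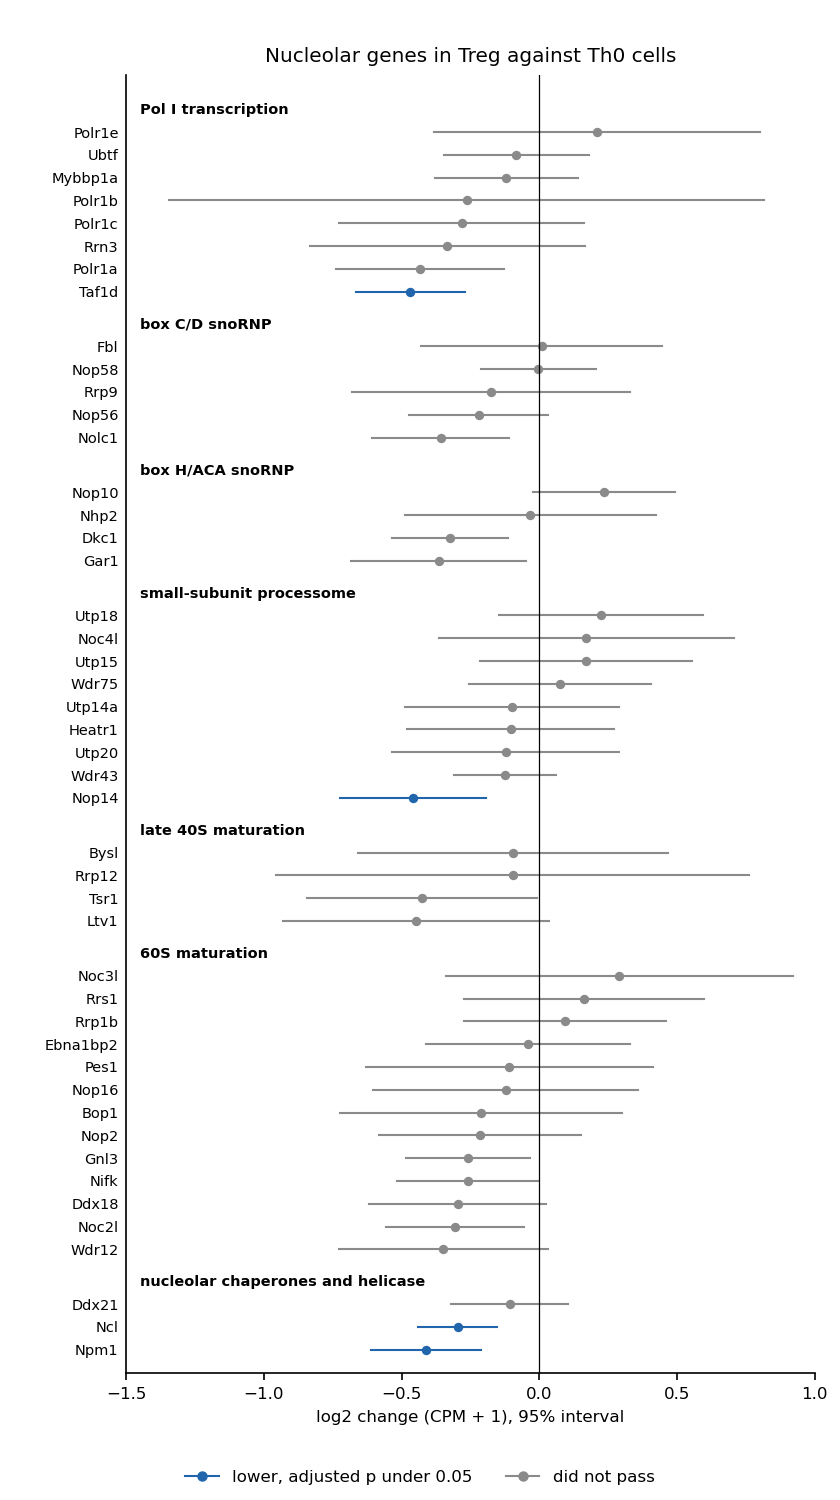
Log2 change of each member in Treg against Th0 cells on the log2(CPM + 1) scale with its 95% interval, by role; blue marks an adjusted p under 0.05. The 4 blue points, Taf1d, Nop14, Ncl and Npm1, lie between -0.47 and -0.30, and most other points lie left of 0.

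In the role groups with no call, the smallest p belonged to Nolc1 at -0.36 ± 0.12 (SE; adjusted p = 0.097) for box C/D, Dkc1 at -0.32 ± 0.10 (SE; adjusted p = 0.0678) for box H/ACA, Tsr1 at -0.43 ± 0.20 (SE; adjusted p = 0.304) for late 40S maturation and Noc2l at -0.30 ± 0.12 (SE; adjusted p = 0.19) for 60S maturation. Dkc1 had 307, 283 and 262 CPM in Treg and 333, 343 and 392 CPM in Th0 libraries, with no overlap, and passed under 2 of 16 alternatives, edgeR on the tags recovered from the CPM (adjusted p = 0.0355) and a filter at 10 CPM (adjusted p = 0.0462). Polr1a, lowest in Treg, was at -0.43 ± 0.15 (SE; adjusted p = 0.105). Nop58 and Fbl, with -0.004 (95% interval -0.21 to 0.20) and 0.01 (95% interval -0.43 to 0.45), were the members with the changes nearest to 0.

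Some of the nucleolar genes host snoRNA genes. In RefSeq, 8 of the 46 members (17.4%) contain at least 1 snoRNA gene within their span, against 2 of 104 other ribosome biogenesis genes (1.92%) and 262 of 10994 protein-coding genes tested (2.38%). SnoRNAs are the small guide RNAs of the 2 modifying particles and are mostly cut from introns of such host genes. The hosts were Taf1d with 6 snoRNA genes, Nop56 with 5, Nop58 with 4, Gnl3 and Wdr43 with 3 each, Ncl with 2, and Dkc1 and Tsr1 with 1 each. The count was made after the values had been seen and disregards strand. Of the 8 hosts, 7 were higher in Th0 than in naive cells and Tsr1 was not called. In Treg against naive cells 5 were higher (Dkc1, Gnl3, Ncl, Nop58 and Wdr43). Of all 46 members 58.7% were higher in Th0 and 52.2% in Treg, and of all genes tested 24.3% and 23.3%. Hosts were not tested against the other members. Taf1d and Ncl were the hosts that were lower in Treg than in Th0 cells, where 8.7% of all members and 2.45% of all genes tested were lower. The libraries were primed at polyadenylated ends, so the snoRNAs themselves were not measured here.

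Genes of the same pathway outside the set also held more higher than lower calls against naive cells, as did all genes tested. Of 107 further ribosome biogenesis genes 106 passed the filter (Exosc6 did not). In Treg against naive cells 35 were higher (33%) and 4 lower (3.77%), with a median of 0.30. Over all genes tested 23.3% were higher and 16.5% lower, with a median of 0.08. In Th0 against naive cells 44 were higher (41.5%) and 4 lower (3.77%), with a median of 0.39. Over all genes tested 24.3% were higher and 17.6% lower, with a median of 0.08. Naf1, which loads the H/ACA particle before Gar1 replaces it, had 57.1, 61.9 and 47.0 CPM in the Treg libraries, 59.3, 68.8 and 61.2 CPM in the Th0 libraries and 7.52, 17.3 and 9.35 CPM in the naive libraries, and its changes against naive cells were 2.25 ± 0.25 (SE; adjusted p = 4.98e-07) in Treg and 2.45 ± 0.25 (SE; adjusted p = 1.50e-07) in Th0. Exosc8, a subunit of the RNA exosome that trims ribosomal RNA, was higher by 1.37 and 1.64. Completing the 3 largest rises, Mphosph6, an exosome cofactor, was higher by 1.36 in Treg and Ruvbl2, an ATPase that assembles box C/D particles, by 1.57 in Th0. Mdn1, the giant ATPase that strips factors off the pre-60S particle, fell in both cultures, with 86.1, 81.9 and 114 CPM in the Treg libraries, 122, 111 and 159 CPM in the Th0 libraries and 253, 245 and 291 CPM in the naive libraries, by 1.49 in Treg and 1.02 in Th0 on the log2 scale. Taf1c, another SL1 subunit, and Las1l, a nuclease of the spacer between the ribosomal RNAs, also fell, with changes of -0.95 and -0.71 in Treg and -1.005 and -0.66 in Th0 cells.

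In Treg against Th0 cells 0 of the 106 were higher and 2 lower (1.89%), with a median of -0.12. Over all genes tested 2.99% were higher and 2.45% lower, with a median of -0.01. Ddx24, an RNA helicase, had 328, 367 and 317 CPM in Treg and 444, 488 and 473 CPM in Th0 libraries, a change of -0.47 ± 0.09 (SE; adjusted p = 0.00173). Riok1, a kinase of late 40S maturation, had 163, 158 and 159.7 CPM in Treg and 212, 215 and 213 CPM in Th0 libraries, a change of -0.41 ± 0.11 (SE; adjusted p = 0.0297). In both genes no Treg library reached the Th0 range.

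**Figure D4:**
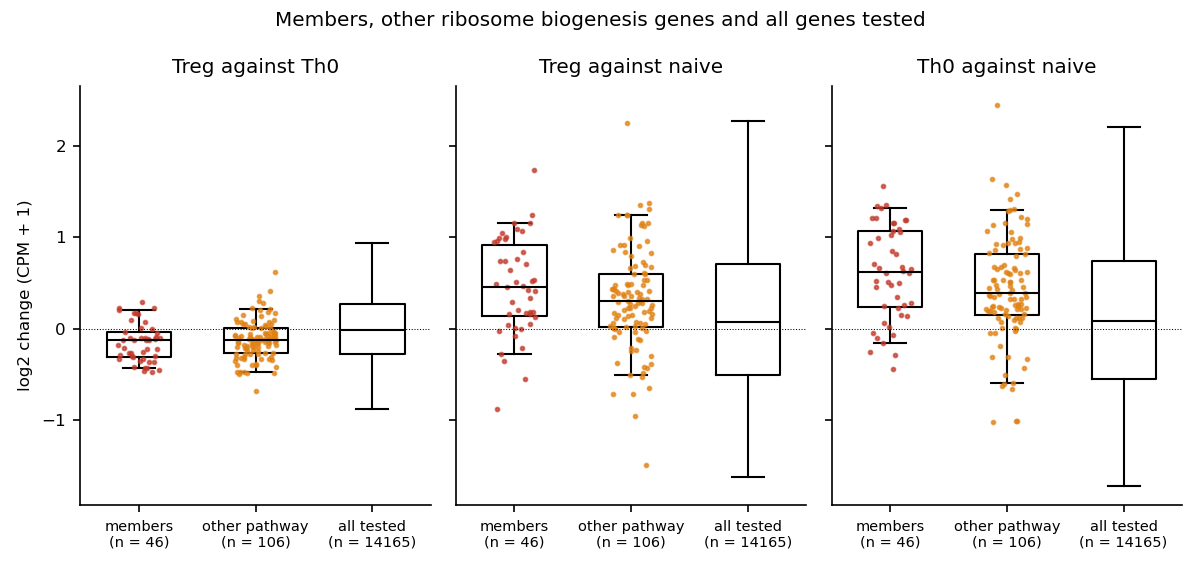
Log2 changes on the log2(CPM + 1) scale of the 46 members, of 106 other ribosome biogenesis genes and of all 14165 genes tested in the 3 comparisons; boxes span the quartiles with the median, whiskers the 5th to 95th percentile, and points are genes. Both gene lists lie slightly below 0 in Treg against Th0 (medians -0.12 and -0.12) and above 0 in Treg against naive (0.46 and 0.30) and Th0 against naive (0.63 and 0.39).

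Guides against Smad2 and Smad3 were aimed at the factors downstream of TGF-beta in Treg cultures, and no member passed the test in any guide comparison. Of the 46 members, 0 were called in sgSmad2/3, sgSmad3 or sgSmad2 against control, and 0% of the 18347 genes tested were (limma on the deposited values, which are CPM rounded to whole numbers, with the same adjustment). At an unadjusted p under 0.05 there were 6 members in sgSmad2/3, 7 in sgSmad3 and 6 in sgSmad2, and 1795, 1842 and 1006 genes in all. In a fit with genes at 10 or more, added after the data had been seen, 54, 10 and 1 genes passed and 0 members. More genes passed with a pseudocount of 0.1 (69 higher and 109 lower in sgSmad2/3, 73 and 105 in sgSmad3, 94 and 91 in sgSmad2) and without the intensity trend (61 and 103, 57 and 101, and 89 and 86 in that order of guides), and no member was among them. With 2 libraries a group, the 95% interval of a member's log2 change reached 0.49 to either side at the median, so many changes of the size seen between Treg and Th0 cells were not detectable.

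The targeted genes check the guide labels only in part. Smad2 stood at 13 and 18 in sgSmad2/3, 12 and 24 in sgSmad2, 25 and 30 in sgSmad3 and 37 and 29 in control libraries, with the lowest values in the groups that carry its guide. Smad3 stood at 41 and 37 in sgSmad2/3, 26 and 25 in sgSmad3, 44 and 56 in sgSmad2 and 30 and 34 in control libraries, so that its tags were below control in sgSmad3 and not in sgSmad2/3. Tags near the 3′ end need not change when a guide alters the coding sequence, and the groups are called by their labels. The myeloid markers summed to 16 and 62 in sgSmad2/3, 48 and 5 in sgSmad3, 0 and 4 in sgSmad2 and 2 and 0 in control libraries, and the red cell markers to 70 and 144 in sgSmad2/3, 87 and 32 in sgSmad3, 25 and 24 in sgSmad2 and 19 and 13 in control libraries. Their part in the values below was not tested.

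Within the control and sgSmad2 groups the libraries numbered 1 stood apart for several members. Over all 46 members, 28 were higher and 15 lower in library 1 than in library 2 of control, with a median log2 difference of 0.0962. In sgSmad2, 26 were higher and 20 lower, with a median of 0.115. Npm1 was at 615 and 578 in sgSmad2/3, 617 and 565 in sgSmad3, 941 and 526 in sgSmad2 and 918 and 646 in control libraries. Library 1 of sgSmad2 and library 1 of control were far above all others, and the changes were -0.37 ± 0.30 (SE; adjusted p = 0.696) in sgSmad2/3, -0.38 ± 0.30 (SE; adjusted p = 0.686) in sgSmad3 and -0.13 ± 0.30 (SE; adjusted p = 1) in sgSmad2. Ncl was at 2011 and 1838 in sgSmad2/3, 1915 and 1808 in sgSmad3, 2258 and 1578 in sgSmad2 and 2205 and 1717 in control libraries, with the same 2 libraries highest. Nop58 (393 and 240 in sgSmad2 and 341 and 210 in control) and Utp18 (70 and 37 in sgSmad2 and 79 and 35 in control) showed the same split. Treg marker sums ran against it, at 344 and 597 in sgSmad2 and 327 and 529 in control libraries. Without these 2 libraries the median change of the members was 0.27 in sgSmad2/3, 0.23 in sgSmad3 and 0.16 in sgSmad2, against 1 control library whose spread is assumed to be that of the other groups.

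The members with the smallest p in each guide comparison were these. Bysl was at 41 and 37 in sgSmad2/3 and 17 and 27 in control libraries, a change of 0.83 ± 0.23 (SE; adjusted p = 0.39), and Polr1a at 57 and 66 in sgSmad2/3 and 45 and 43 in control, a change of 0.47 ± 0.13 (SE; adjusted p = 0.382). In both genes the sgSmad2/3 libraries lay above the control libraries. Dkc1 was at 467 and 338 in sgSmad3 and 254 and 255 in control libraries, a change of 0.64 ± 0.16 (SE; adjusted p = 0.348), and Ubtf at 145 and 141 in sgSmad3 and 95 and 100 in control, a change of 0.55 ± 0.14 (SE; adjusted p = 0.361), again with no overlap. Fbl was at 37 and 38 in sgSmad2 and 30 and 28 in control libraries, a change of 0.36 ± 0.11 (SE; adjusted p = 0.727). None of these passed.

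The values in brackets are log2 changes. Against control, the member with the smallest p of each role in sgSmad2/3 was Polr1a (0.47), Bysl (0.83), Nifk (0.56), Utp20 (0.53), Fbl (0.24), Dkc1 (0.35) and Npm1 (-0.37), with adjusted p = 0.382 to 0.696. Against control, the member with the smallest p of each role in sgSmad3 was Dkc1 (0.64), Ubtf (0.55), Rrp9 (0.71), Nifk (0.43), Bysl (0.44), Utp20 (0.31) and Npm1 (-0.38), with adjusted p = 0.348 to 0.686. Against control, the member with the smallest p of each role in sgSmad2 was Fbl (0.36), Utp20 (0.48), Bop1 (0.36), Rrn3 (-0.41), Nhp2 (0.53), Bysl (0.44) and Npm1 (-0.13), with adjusted p = 0.727 to 1.

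For Taf1d, Nop14 and Ncl, which were lower in Treg than in Th0 cells, the changes in the guide libraries are given with their 95% intervals. Taf1d was at 188 and 199 in sgSmad2/3, 157 and 160 in sgSmad3, 290 and 183 in sgSmad2 and 263 and 220 in control libraries, with changes of -0.31 (-0.87 to 0.24) in sgSmad2/3, -0.60 (-1.15 to -0.04) in sgSmad3 and -0.06 (-0.62 to 0.49) in sgSmad2 against control. Nop14 changed by -0.05 (-0.69 to 0.59), -0.45 (-1.09 to 0.19) and 0.03 (-0.61 to 0.67), Ncl by -0.02 (-0.54 to 0.51), -0.06 (-0.59 to 0.46) and -0.04 (-0.57 to 0.48), in the same order of guides. The interval lay wholly below 0 for Taf1d in sgSmad3, which did not pass after adjustment (adjusted p = 0.472), and held 0 for the other values given.

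Group separation among the members was counted for the guides too. Wholly above control lay 19 members in sgSmad2/3, 16 in sgSmad3 and 14 in sgSmad2, and wholly below lay 5, 6 and 1. Over all genes tested the shares above were 16.1%, 15.3% and 10.3%, and below 13.7%, 12.9% and 8.7%. Genes at a few rounded tags often tie and then count as overlapping, and the 3 comparisons share the control libraries. The median change of the members was 0.15 in sgSmad2/3, 0.08 in sgSmad3 and 0.15 in sgSmad2, with 0.00 over all genes in each. These medians depended on single libraries. Without control replicate 1 they were 0.27 in sgSmad2/3, 0.23 in sgSmad3 and 0.22 in sgSmad2, and without control replicate 2 they were 0.04, 0.02 and 0.05 in that order of guides. That of sgSmad3 was also 0.16 without sgSmad3 replicate 1 and -0.007 without sgSmad3 replicate 2. In sgSmad3 against sgSmad2 and in the test of whether sgSmad2/3 differed from both single guides added up, 0 members and 0% of genes passed, with 1 and 3 members and 1605 and 1051 genes at an unadjusted p under 0.05. Of the 106 other ribosome biogenesis genes tested in this table, 0 passed in any guide comparison.

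**Figure D5:**
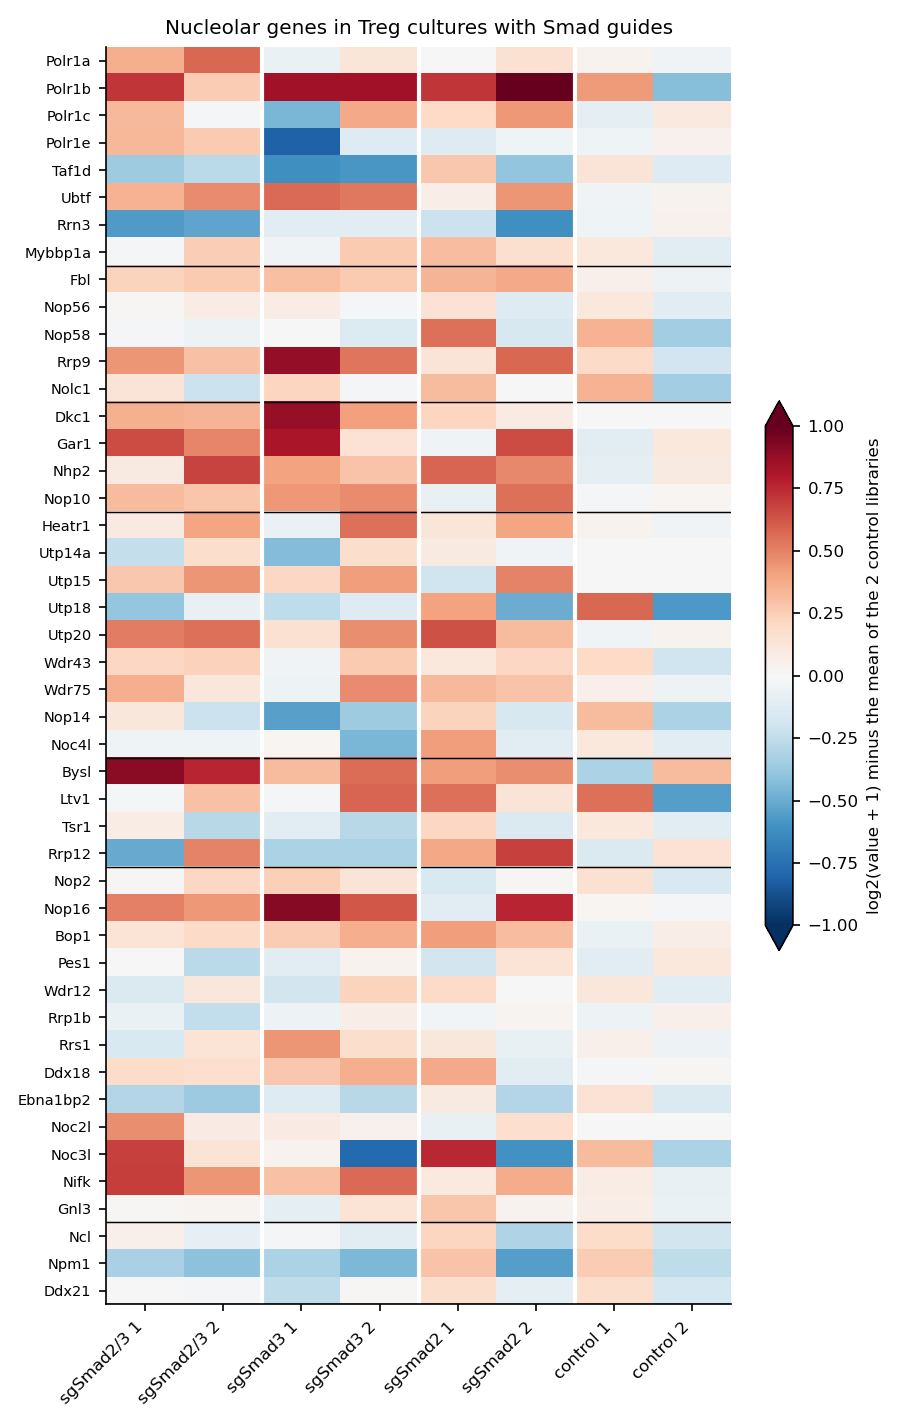
Log2(value + 1) of each member in the 8 libraries of the Smad experiment minus the mean of the 2 control libraries, with colours saturating at 1 in either direction; black lines part the roles. The columns sgSmad2 1 and control 1 share high values of Npm1, Nop58 and Utp18.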

How the data were processed

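QuantSeq 3' FWD libraries hold 1 tag near the polyadenylated end of a transcript, per the labels' protocols, so a gene's length does not enter its level. STAR 2.7.9a, Bowtie2, deepTools, Subread 2.0.1 and mm10 are listed, without role or order, by the submitters' processing notes. Annotation and strand setting were not given in the sources used here. Cell-type values are CPM, as deposited by the authors: every column sums to 1000000, and 100% of values are whole tags within a tolerance of 0.01. For the Smad table the deposited values are a score, CPM rounded by the authors to whole numbers. The log-scale tests had been chosen for TPM, the name on the tables, and were kept. Not analysed here were 8 ATAC libraries and 4 RNA libraries on Acsbg1.

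Genes with a value of 1 or more in at least 3 (cell types) or 2 (Smad) libraries were fitted in limma 3.58.1 (R 4.3.3) on log2(value + 1), unpaired, with the variance following intensity and 1 fit per table. Alternatives were a pseudocount of 0.1, no filter, no trend, quantile scaling, a replicate block, edgeR 4.0.16 on whole tags recovered from the CPM, each library left out and, added after the data had been seen, a filter at 10 and leaving out 2 Smad libraries. The edgeR fit called 583 genes higher and 483 lower in Treg against Th0, 3012 and 2793 in Treg against naive, and 2956 and 2813 in Th0 against naive cells. A level of 0 allows up to 3 tags, at most 3.76 CPM, which covers counting error only. Scripts were tested on simulated data, where false calls were limited only among genes at a mean of 10 or more. Genes with few rounded tags can lack spread between libraries and give false calls.

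The members and lists were chosen with earlier results of these data known. Values in every library are given for Ncl, Npm1 and Fbl, for the largest called rise and fall of each of 7 role groups in each cell-type comparison, and otherwise the smallest p is named. In RefSeq, 13 members share bases with another protein-coding gene, among them Taf1d, Dkc1 and Polr1e, and tags there may be shared. The longest of these overlaps were those of Tsr1 with Srr (5314 bases) and Bop1 with Scx (2058). With any gene but snoRNAs and microRNAs counted, 17 members overlap another gene. Among them are Polr1a (2641 bases with Gm26628) and Nop14 (1783 with Gm15522). Libraries of a group differed by more than counting error (chi-square per degree of freedom 1.43 to 2.27 in cell-type pairs).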

Additional observations from a re-analysis of the deposited data

How the results depend on the processing

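No member's change turned its direction past the threshold under any alternative. Calls in Treg against Th0 were the least stable: without the intensity trend 0 members were lower, and leaving out a library gave 2 to 4 lower and 0 higher. In Treg against naive cells 3 members were lower with quantile scaling (Polr1a, Ltv1 and Nop14) and 2 with edgeR, and leaving out a library gave 20 to 25 higher and 1 to 2 lower. In Th0 against naive cells 0 were lower without the trend, and leaving out a library gave 24 to 28 higher and 0 to 1 lower. The guide comparisons gave 0 members in all alternatives; where 1 library of a group was left, its spread is assumed to be that of the other groups. The cause of these moves was not tested. Fits with the replicate number as a block gave 3 lower and 0 higher in Treg against Th0, 24 higher and 1 lower in Treg against naive, 28 higher and 1 lower in Th0 against naive, and 0 in the guide comparisons. Deviations of same-numbered libraries correlated at -0.00287 to 0.0414 in the cell-type table. In the Smad table they correlated at 0.00556 to 0.0374, except for 0.215 between control and sgSmad2. Libraries with different numbers were not compared in the cell-type table. With 2 libraries a group in the Smad table the deviations are opposite, so different numbers give the same values with the sign turned. Whether the numbers pair the samples was not tested. For called members of the cell-type comparisons, 28 of 448 values in Th0 against naive, 32 of 400 in Treg against naive and 17 of 64 in Treg against Th0 lost the threshold. Against naive cells, quantile scaling lost the Treg calls of Polr1c, Polr1e, Utp18, Wdr75, Pes1 and Wdr12. It lost the Th0 calls of Rrp9, Bop1, Pes1, Ddx18 and Ddx21. Without the trend the Treg calls of Utp18, Wdr43, Wdr75, Pes1 and Gnl3 and the Th0 calls of Polr1a, Ddx18 and Ddx21 were lost. The edgeR fit lost those of Polr1e, Utp18 and Wdr75 in Treg and of Rrp9, Bop1 and Ddx21 in Th0. Depth limits what can be seen of members with few tags, such as Polr1b and Rrp12.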
